A study of Mus musculus with 9 samples.

Results

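The genes that carry a cell through G1 were followed in a mouse cell model of ovarian cancer. The set held 10 genes: the D-type cyclins Ccnd1, Ccnd2 and Ccnd3, the E-type cyclins Ccne1 and Ccne2, the kinases Cdk4 and Cdk6, and the CDK inhibitors Cdkn1b, Cdkn2a and Cdkn2c. A probe set was a member when its annotation named 1 of these genes and no other. This gave 26 of the 45101 probe sets on the array, for 10 of the 18194 genes named in this way. Of these, 21 probe sets for 9 genes had a signal over 500 on at least 1 array and were tested among 13845 probe sets and 7952 genes. Cdkn2a was the gene left below that filter.

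All cells came from 1 series of mouse ovarian surface epithelial (MOSE) cells of C57BL6 mice, which transformed spontaneously in culture and carried no introduced gene. Early cells (MOSE-E, passages 13, 14 and 15) were non-malignant, MOSE-I cells (passages 63, 71 and 73) were intermediate, and MOSE-L cells (passages 136, 142 and 143) were malignant. All 3 stages grew in the same high glucose DMEM with 4% fetal bovine serum, insulin, transferrin, selenite, penicillin and streptomycin. Each stage had 3 arrays, 1 culture per array, and the cultures are heterogeneous, so the p-values describe the spread among passages of 1 cell series and not among animals or independent lines. Each array holds the RNA of a whole culture, in which fewer cells of a kind and less RNA per cell cannot be told apart.

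In G1 the D-type cyclins, made in answer to growth factors, activate CDK4 and CDK6, which begin to phosphorylate the retinoblastoma protein. This frees E2F transcription factors, which switch on the genes of DNA synthesis and the E-type cyclins. Cyclin E then activates CDK2, completes the phosphorylation and starts S phase. The INK4 inhibitors block CDK4 and CDK6, while the Cip/Kip inhibitors bind cyclin-CDK2 complexes. Loss of the INK4 locus is common when mouse cells become immortal in culture.

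Signals are MAS 5.0 intensities per probe set, scaled by the authors to a trimmed mean of 500 on each array, and they are given below in the order of replicates 1, 2 and 3. Changes are differences of log2(signal + 50), which understates the change of dim genes, with the standard error (SE) and the Benjamini-Hochberg adjusted p of limma over all tested probe sets. A call needed an adjusted p not above 0.05 together with a log2 change of 1 or more in size, and each gene stood on its probe set with the highest mean signal. Levels of different probe sets are not comparable, and those of different genes are not set against each other. Where the signals of a list are summed, its brightest probe sets weigh most. Median signals per array ran from 93.2 to 130.0. Replicate 1 was the array least like its stage in MOSE-E (r of 0.951 and 0.955) and in MOSE-I (r of 0.939 and 0.947). The other arrays of those stages had r of 0.986 and 0.985 to each other. MOSE-L replicate 3 stood further apart from its stage, with r of 0.889 and 0.907 to the other MOSE-L arrays where the lowest r within another stage was 0.939. It also had the highest Actb 3'/5' signal ratio, a measure of RNA integrity, at 1.83 against 1.12 to 1.45 on the other arrays, while its Gapdh ratio of 0.727 lay at the low end of 0.727 to 0.810.

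Both cyclin E genes were called lower in the malignant stage, Ccne1 less firmly than Ccne2. The calls were made in MOSE-L cells against MOSE-E cells and against MOSE-I cells. Against MOSE-E, the Ccne2 call held under all 24 alternative settings and the Ccne1 call under 9 of 23. None of the D-type cyclins, the kinases or the inhibitors Cdkn1b and Cdkn2c was called in any of the 3 comparisons. Cdkn2a, below the filter, was not tested. Between MOSE-L and MOSE-E, 0 of 9 tested members rose and 2 fell, where 8.11% of all tested genes were called higher and 7.49% lower. Between MOSE-L and MOSE-I the counts were also 0 and 2, against 7.38% and 6.04% of all genes. Between MOSE-I and MOSE-E none was called in either direction, against 2.29% and 3.61% of all genes. At an unadjusted limma p under 0.05 the last comparison gave 2 higher (Cdk4 and Cdkn2c) and 0 lower, and the methods' t-test at that limit gave those 2 higher and Ccne2 lower. For MOSE-L against MOSE-E limma gave 0 higher and 3 lower (Ccnd3, Ccne1 and Ccne2). For MOSE-L against MOSE-I it gave 1 higher (Cdkn1b) and 4 lower (Ccnd3, Ccne1, Ccne2 and Cdk4). The t-test gave only Ccne2, lower, in each of these. The share of all genes at the unadjusted limit is not given, here or for the lists below, so such counts are a description.

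The members' median log2 change was -0.45 in MOSE-L against MOSE-E, 0.063 in MOSE-I against MOSE-E and -0.51 in MOSE-L against MOSE-I. The medians over all tested genes were 0.031, 0.034 and -0.018. The comparisons share arrays. Groups of signals that did not overlap were counted too. Ccnd3 and Ccne2 lay wholly lower in MOSE-L than in MOSE-E, and no member wholly higher, where 21.7% and 23.1% of all genes did. In MOSE-I against MOSE-E, Cdk4 and Cdkn2c lay wholly higher and Ccne2 wholly lower, against 23.4% and 17.8% of all genes. In MOSE-L against MOSE-I, Cdkn1b lay wholly higher and Ccnd3, Ccne1 and Ccne2 wholly lower, against 20.7% and 23.5%.

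**Figure D1:**
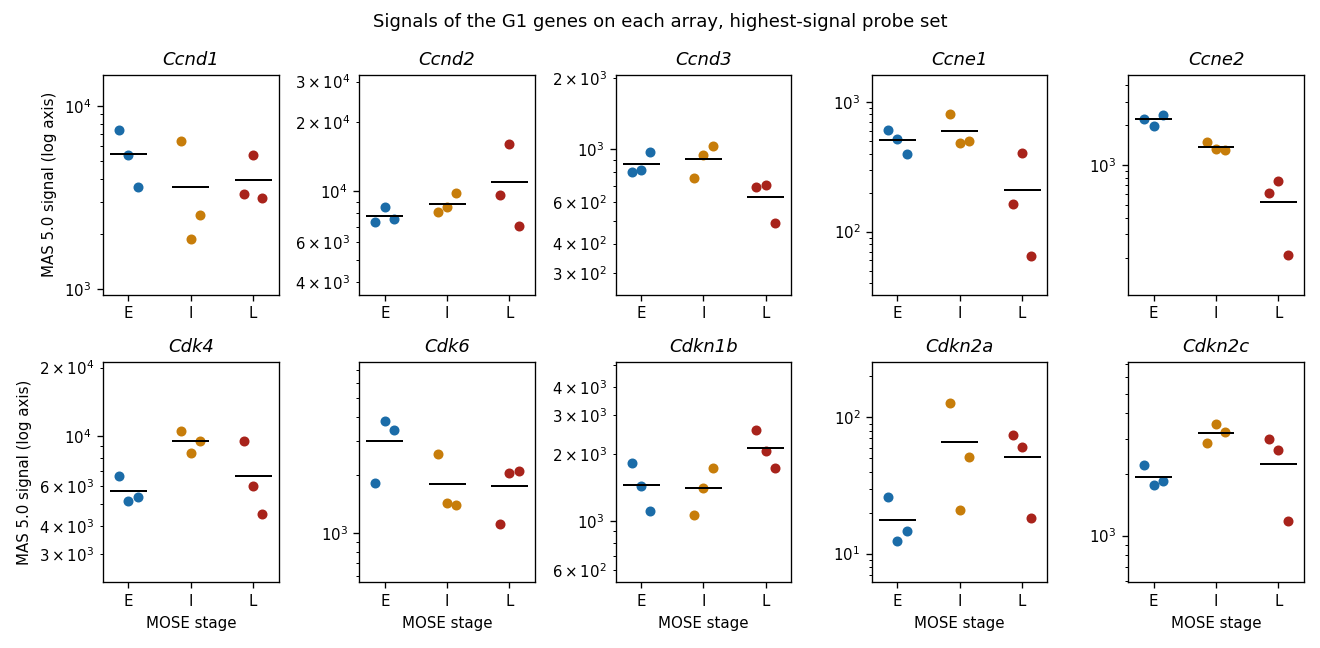
Signals of each of the 10 genes on its probe set with the highest mean signal, on a log axis with its own range in each panel. Each point is 1 array, coloured by stage (E, I and L for MOSE-E, MOSE-I and MOSE-L), and the line is the mean of the 3 arrays. The Ccne2 points step down from stage to stage, while Ccne1 drops at MOSE-L with 1 array still at 403.

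Ccne2, on chromosome 4 (GRCm38.p6, 11190433 to 11204779), encodes cyclin E2, a CDK2 activator that is switched on at the end of G1. Its signals were 2233, 1971 and 2384 in MOSE-E cells, 1496, 1327 and 1295 in MOSE-I cells and 614, 752 and 211 in MOSE-L cells. No array of a later stage reached the lowest array of an earlier one. MOSE-L cells were lower than MOSE-E cells by a log2 change of -2.11 (SE 0.34, adjusted p = 0.00189), a ratio of mean signals of 0.239. They were also lower than MOSE-I cells, by -1.46 (SE 0.34, adjusted p = 0.0140). The step from MOSE-E to MOSE-I, at -0.66 (SE 0.34, adjusted p = 0.221), did not pass the test. The fall from MOSE-E to MOSE-L was called under all 24 alternative settings, with log2 changes of -2.43 to -1.62 when single arrays were left out. Without MOSE-L replicate 3 the difference from MOSE-I was -0.96 (adjusted p = 0.00759), just under the size asked of a call, and Ccne1 was not called there either (-1.02, adjusted p = 0.0753).

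Ccne1 encodes cyclin E1, the other CDK2 partner of late G1 and a gene often amplified in human ovarian carcinoma. It lies on the minus strand of chromosome 7 (GRCm38.p6, 38097984 to 38107490). E2F factors are known to act on cyclin E promoters, and the 150 bases before the RefSeq start of Ccne1 are printed because they hold the core of an E2F site, TCCCGC, in both orientations. The sequence is from RefSeq (GRCm38.p6, chr7:38107491-38107640, minus strand), written 5′ to 3′ along the gene, with the cores in capitals.
Ccne1 promoter: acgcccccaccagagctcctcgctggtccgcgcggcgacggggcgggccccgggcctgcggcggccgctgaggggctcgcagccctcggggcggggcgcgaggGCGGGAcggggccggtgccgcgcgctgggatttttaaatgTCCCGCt
The cores lie 47 to 42 and 7 to 2 bases before the start. Of all 32851 promoter windows in the table (250 bases before to 50 after a start), 20.0% held at least 1 core on either strand and 4.96% at least 2, so the words are common. The match is a description and not a site.

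On the array, Ccne1 signals were 612, 522 and 394 in MOSE-E cells, 809, 479 and 495 in MOSE-I cells and 163, 403 and 65.3 in MOSE-L cells. MOSE-L replicate 2 lay within the MOSE-E range and the other MOSE-L arrays far below it. The log2 change of MOSE-L against MOSE-E was -1.31 (SE 0.43, 95% interval -2.25 to -0.37, adjusted p = 0.0442). Against MOSE-I cells the fall was -1.49 (SE 0.43, adjusted p = 0.0279). MOSE-I and MOSE-E differed by 0.19 (SE 0.43, adjusted p = 0.804), a value with no called direction. The other Ccne1 probe set, with r of 0.986 to the one above over the 9 arrays, also fell from MOSE-E to MOSE-L (-1.09, SE 0.34, adjusted p = 0.0384). Its signals there were 161, 293 and 72.0 against 461, 355 and 366, so on this probe set the stages did not overlap. All of these signals lay below the filter, which the probe set passed only through MOSE-I replicate 1, at 539.

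The call on Ccne1 was less firm than that on Ccne2. It held between MOSE-L and MOSE-E under 9 of 23 alternatives, with adjusted p from 0.00668 to 0.233. Of the 9 fits that left out a single array, 2 kept it. Between MOSE-L and MOSE-I the Ccne1 call held under 13 of 23 alternatives, and in 5 of the 9 fits without a single array. In MOSE-L against MOSE-E, leaving out MOSE-L replicate 3 gave -0.83 (adjusted p = 0.119) and leaving out MOSE-L replicate 2 gave -1.82 (adjusted p = 0.00668). A minimum signal of 1000 left the gene untested. The difference between the Ccne1 and Ccne2 log2 signals was tested over the stages by an exact permutation test of F over all 1680 arrangements of the arrays, which can give no p below 0.00357. Against MOSE-E cells it was larger by 0.84 in MOSE-I and by 0.81 in MOSE-L cells (exact p = 0.0571, adjusted over 3 gene pairs 0.171), so a difference in the courses of the 2 cyclins was not shown.

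**Figure D2:**
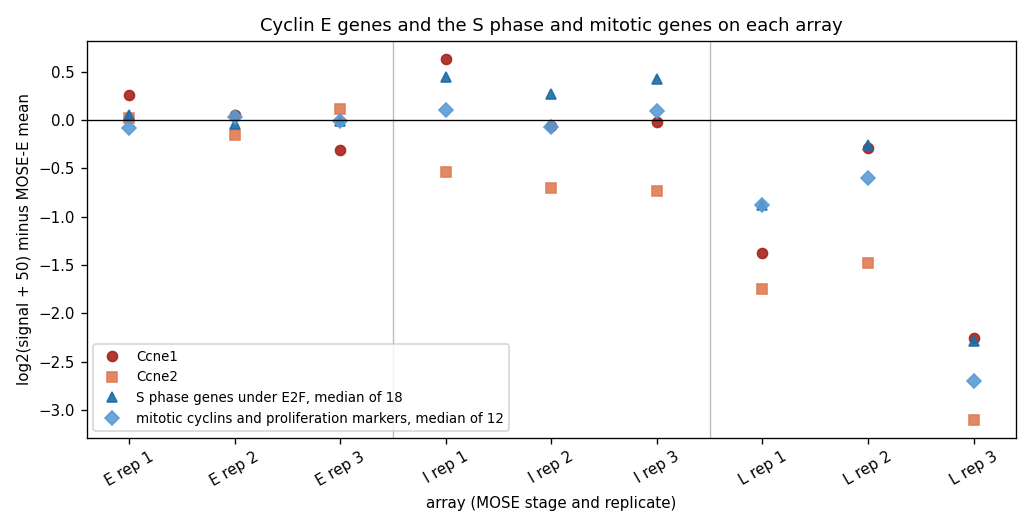
Ccne1 and Ccne2 on each of the 9 arrays as log2(signal + 50) minus the MOSE-E mean, beside the median of 18 S phase genes and of 12 mitotic genes on the same scale. On MOSE-L replicate 3 all 4 values lie below -2, and on MOSE-L replicate 2 they lie closest to the MOSE-E level of that stage's arrays.

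The D-type cyclins bind CDK4 and CDK6 and overlap in function. Ccnd1, the cyclin D gene most often overexpressed in carcinomas, lies on chromosome 7 (144929931 to 144939831). Its signals were 7383, 5420.0 and 3605 in MOSE-E cells, 6439.6, 1863 and 2534 in MOSE-I cells and 3297, 5413 and 3153 in MOSE-L cells. They varied as much within stages as between them, and the ranges overlapped in every comparison. The log2 changes were -0.74 for MOSE-I against MOSE-E (adjusted p = 0.266), -0.45 for MOSE-L against MOSE-E (adjusted p = 0.460) and 0.29 for MOSE-L against MOSE-I (adjusted p = 0.627), each with an SE of 0.43. Without MOSE-I replicate 1, the high array of its stage, the first of these was -1.25 (adjusted p = 0.0490) and would have been called. All 3 Ccnd1 probe sets followed each other (r of 0.913 to 0.975).

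Ccnd2 encodes cyclin D2, the D-type cyclin of granulosa cells in the ovary and of many other tissues, and lies on chromosome 6 (127125162 to 127152188). Signals were 7293, 8543 and 7556 in MOSE-E cells, 8106, 8485 and 9763 in MOSE-I cells and 9649.9, 16059 and 7069 in MOSE-L cells. MOSE-L replicate 2 was the highest of the 9 arrays and MOSE-L replicate 3 the lowest, so the malignant stage spanned the other stages. MOSE-L differed from MOSE-E by 0.40 (SE 0.26, adjusted p = 0.274). On the 7 probe sets of Ccnd2 this change ran from 0.090 to 0.43, with no call. Ccnd1 and Ccnd2 did not differ in their course beyond the spread (exact p = 0.254, adjusted 0.254), with a difference of log2 changes, Ccnd1 minus Ccnd2, of -0.85 in MOSE-L against MOSE-E.

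Ccnd3 encodes cyclin D3 (chromosome 17, 47505051 to 47599689). The 1 of its 3 probe sets past the filter gave 804, 823 and 979 in MOSE-E cells, 755, 951 and 1035 in MOSE-I cells and 691, 709 and 487 in MOSE-L cells. Every MOSE-L array lay below every array of the other stages, by a small margin. The changes of MOSE-L were -0.45 against MOSE-E (SE 0.20, adjusted p = 0.117) and -0.51 against MOSE-I (SE 0.20, adjusted p = 0.0750), and neither passed the test.

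The kinase Cdk4 (chromosome 10, 127063535 to 127067288) had its highest signals in the intermediate stage. They were 6645, 5141 and 5361 in MOSE-E cells, 10538, 8428 and 9543 in MOSE-I cells and 9543, 5984 and 4525 in MOSE-L cells. All MOSE-I arrays lay above all MOSE-E arrays, on each of the 3 probe sets, and MOSE-L cells overlapped both. MOSE-I against MOSE-E gave 0.73 (SE 0.26, 95% interval 0.17 to 1.30, adjusted p = 0.0874) on this probe set and 0.40 and 0.79 on the others (adjusted p = 0.215 and 0.0540). MOSE-L against MOSE-E gave 0.16 (SE 0.26, adjusted p = 0.663), and MOSE-L against MOSE-I gave -0.57 (adjusted p = 0.114).

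Cdk6, the other cyclin D kinase, spans 3341004 to 3531008 on chromosome 5. Signals were 1818, 3819.7 and 3402 in MOSE-E cells, 2571, 1438 and 1397 in MOSE-I cells and 1114, 2055 and 2101 in MOSE-L cells. MOSE-E replicate 1 was low for its stage and lay within the range of the later stages. MOSE-L against MOSE-E gave -0.75 (SE 0.35, adjusted p = 0.134) and MOSE-I against MOSE-E -0.71 (SE 0.35, adjusted p = 0.195). The other Cdk6 probe set past the filter, on which MOSE-L lay wholly below MOSE-E, gave -0.73 (SE 0.25, adjusted p = 0.0492), which passed on p and not on size. Without MOSE-E replicate 1 the change of MOSE-L was -1.07 (adjusted p = 0.0487) and was called. Against MOSE-E cells, Cdk4 minus Cdk6 in log2 signal was higher by 1.45 in MOSE-I and by 0.91 in MOSE-L cells, which the exact permutation test did not set apart (exact p = 0.146, adjusted 0.220).

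**Figure D3:**
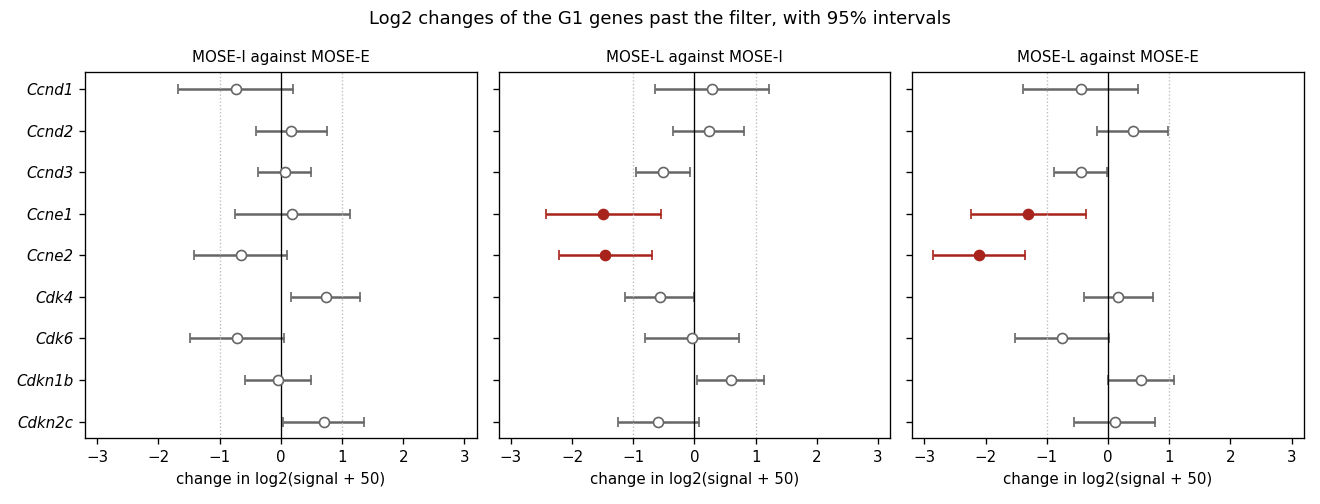
Log2 changes of the 9 genes past the filter in the 3 comparisons, with 95% intervals from limma. Filled red points are called and open points are not; dotted lines mark log2 changes of 1 and -1, and Ccne1 and Ccne2 are the called genes in both comparisons of MOSE-L.

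Cdkn1b encodes p27, a Cip/Kip inhibitor of cyclin E-CDK2, and lies on chromosome 6 (134920401 to 134925525). Its signals were 1819.9, 1438 and 1104 in MOSE-E cells, 1062, 1409 and 1737 in MOSE-I cells and 2575, 2062 and 1739 in MOSE-L cells. All MOSE-L arrays lay above all MOSE-I arrays, replicate 3 only just, and that array lay below the highest MOSE-E array. MOSE-L differed from MOSE-E by 0.54 (SE 0.25, 95% interval -0.0017 to 1.09, adjusted p = 0.126) and from MOSE-I by 0.59 (SE 0.25, adjusted p = 0.0922). Neither passed the test, and the protein, which is set largely by its turnover, was not measured by these arrays.

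Cdkn2c encodes the INK4 inhibitor p18 (chromosome 4, 109660876 to 109666756). Signals were 2219, 1772 and 1862 in MOSE-E cells, 2844, 3556 and 3221 in MOSE-I cells and 2973, 2631 and 1179 in MOSE-L cells. MOSE-I lay wholly above MOSE-E, and MOSE-L held the lowest of all 9 arrays, replicate 3. MOSE-I against MOSE-E gave 0.70 (SE 0.30, 95% interval 0.041 to 1.37, adjusted p = 0.145) and MOSE-L against MOSE-E 0.11 (SE 0.30, adjusted p = 0.809). Over the 9 arrays Cdkn2c followed Cdk4 with r of 0.868, as closely as Ccne1 followed Ccne2 (r of 0.866), and these were the highest values among the members. Cdk6 and Cdkn1b ran most nearly opposite, with r of -0.676. The arrays share stages and MOSE-L replicate 3, so these values are a description.

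Cdkn2a encodes the INK4 inhibitor p16 and, from another reading frame, the p53 activator ARF, and lies on chromosome 4 (89274473 to 89294619). The 1 probe set gave 26.2, 12.3 and 14.6 in MOSE-E cells, 126, 20.8 and 51.5 in MOSE-I cells and 74.6, 60.7 and 18.3 in MOSE-L cells. All 9 signals were far below the filter, in a range where 32.4% of all signals on the arrays lay under 50, so no fold or test is given. Which of the transcripts the probe set reads was not analysed here. Its pairing with Cdkn2c was not tested for the same reason.

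**Figure D4:**
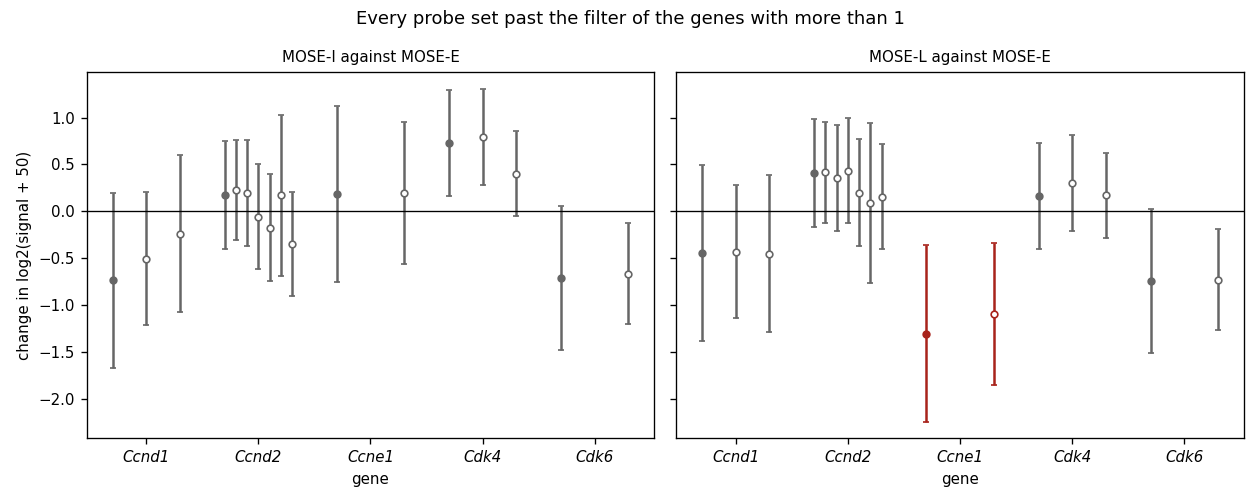
Log2 changes with 95% intervals for every probe set past the filter of the 5 genes that have more than 1, for MOSE-I (left) and MOSE-L (right) against MOSE-E. The filled point is the probe set that stands for the gene and red marks calls; the Ccnd1, Ccne1, Cdk4 and Cdk6 probe sets point the same way within each gene, and those of Ccnd2 in MOSE-I lie on both sides of 0.

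The other genes of the pathway were read from lists of its steps. Of the other CDK inhibitors, 2 of 4 were past the filter and 0 were called in either direction between MOSE-L and MOSE-E (also 0 at an unadjusted limma p under 0.05), with a median log2 change of -0.33. Cdkn2d, an INK4 inhibitor, gave -0.69 (adjusted p = 0.150). Between MOSE-L and MOSE-I, 1 was called higher, Cdkn1a, which encodes p21 (1.34, adjusted p = 0.0383). Its MOSE-I signals were 1371, 404 and 373 against 1353, 1259 and 2376 in MOSE-L cells, so the groups overlapped through MOSE-I replicate 1.

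Among the 7 genes of CDK2, cyclin A and the CDK activators, 0 were called higher and 1 lower in MOSE-L against MOSE-E, with a median of -0.54. The gene was Ccna2, the cyclin A that follows cyclin E on CDK2 in S phase (-2.24, adjusted p = 0.0289). Its signals were 4727, 4481 and 4697 in MOSE-E cells and 1783, 2099 and 198 in MOSE-L cells, and the call was lost without MOSE-E replicate 2 or 3 (0 lower). Of the Rb family and its partners 7 of 9 were tested and 0 called (1 higher and 4 lower at an unadjusted limma p under 0.05), with a median of -0.56. Tfdp1, a dimer partner of E2F, gave -0.97 (adjusted p = 0.0144), just short on size. The list had 1 gene called lower with median centring or without MOSE-E replicate 1, and 2 without MOSE-L replicate 1 or without MOSE-L replicate 2. Rb1 itself was below the filter on every array, at 189 to 481.

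Of the E2F factors 6 of 8 were tested, with 0 called higher, 2 lower and a median of -0.54. Those lower were E2f7 (-2.36, adjusted p = 0.0108) and E2f8 (-1.90, adjusted p = 0.0457), the atypical E2Fs that repress transcription and are themselves E2F targets. E2f7 signals were 813, 1209 and 1104 in MOSE-E cells, 567, 472 and 464 in MOSE-I cells and 271, 379.8 and 17.2 in MOSE-L cells. As with cyclin E2, each stage lay below the one before. The count of 2 was 1 in 8 of the 9 fits that left out a single array. In MOSE-L against MOSE-I 1 factor was called lower, E2f6 (-1.02, adjusted p = 0.0134). It gave -0.78 against MOSE-E (adjusted p = 0.0341), which passed on p and not on size. E2f7 (-1.39, adjusted p = 0.0765) and E2f8 (-1.27, adjusted p = 0.146) were not called against MOSE-I.

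Of 20 S phase genes under E2F control 18 were tested, and in MOSE-L against MOSE-E 0 rose and 7 fell, with a median of -1.07. They included Rrm2, a subunit of ribonucleotide reductase (-2.27, adjusted p = 0.0178), the helicase subunits Mcm5 (-1.93, adjusted p = 0.0249) and Mcm4 (-1.47, adjusted p = 0.0484), and the origin licensing factor Cdc6 (-1.60, adjusted p = 0.0283). Against MOSE-I cells 11 fell, with a median of -1.51. In MOSE-I against MOSE-E 0 were called (4 higher and 0 lower at an unadjusted limma p under 0.05), with a median of 0.39. Array by array, the list's median in MOSE-L cells against the MOSE-E mean was -0.88, -0.26 and -2.29. The count of 7 depended on single arrays: it was 2 without MOSE-L replicate 3 or without MOSE-E replicate 1, 4 without MOSE-L replicate 1, 0 without MOSE-E replicate 2 or 3, and 13 without MOSE-L replicate 2.

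The mitotic cyclins and proliferation markers moved in the same direction. Of the 12 tested, 0 rose and 7 fell in MOSE-L against MOSE-E, with a median of -1.51. They included Ube2c, which loads ubiquitin on mitotic cyclins (-2.14, adjusted p = 0.0221), Mki67, the Ki-67 antigen (-2.12, adjusted p = 0.0232), the kinase Plk1 (-1.87, adjusted p = 0.0244) and topoisomerase Top2a (-1.60, adjusted p = 0.0359). In MOSE-L cells the summed signal of the list ran from 5764 to 28209, against 41061 to 49351 for MOSE-E cells and 43955 to 51220.2 for MOSE-I cells, so the groups did not overlap. These signals are no measure of growth, and the paper refers to earlier work in which MOSE-L cells had an increased growth rate. The share of cycling cells in the cultures was not measured, and the part of these genes in the fall of cyclin E was not tested. The count of 7 ran from 1 to 10 over the fits that left out a single array. It was 4 without MOSE-L replicate 3 and 1 without MOSE-E replicate 2 or 3.

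Genes for the turnover of G1 cyclins and p27 gave 0 calls among 8 tested between MOSE-L and MOSE-E (1 higher and 2 lower at an unadjusted limma p under 0.05) and a median of -0.044. The count lower was 2 without MOSE-L replicate 2, and 1 without MOSE-L replicate 3 or with 1 added before log2. Cks1b, a cofactor of the ubiquitin ligase that marks p27, gave -0.53 (adjusted p = 0.224). Skp2, which recognises p27 in that ligase, fell in MOSE-L against MOSE-I cells (-1.23, adjusted p = 0.0182). Fbxw7, which marks cyclin E for destruction, had signals of 677, 704 and 712 in MOSE-E cells, 403, 458 and 356 in MOSE-I cells and 249.8, 388 and 397 in MOSE-L cells. Its change of -0.94 between MOSE-L and MOSE-E (adjusted p = 0.00917), with MOSE-L wholly lower, passed on p and not on size. Of 13 tested transcriptional regulators of G1 genes 0 were called between MOSE-L and MOSE-E (2 higher and 2 lower unadjusted), with a median of 0.11. Foxo3 (0.98, adjusted p = 0.0134), Foxo1 (0.74, adjusted p = 0.0218) and Ezh2 (-0.93, adjusted p = 0.0281) passed on p and not on size. The regulators had 1 called higher without MOSE-E replicate 1 or with 1 added before log2, 1 lower without MOSE-L replicate 1, and 1 in each direction without MOSE-L replicate 2. Bmi1, a Polycomb protein that represses the Cdkn2a locus, gave -0.44 (adjusted p = 0.143). In MOSE-I against MOSE-E cells 1 was lower, Jun, a subunit of AP-1 (-1.31, adjusted p = 0.0106). Against MOSE-I cells MOSE-L cells had 1 lower, Ezh2, a Polycomb methyltransferase (-1.13, adjusted p = 0.0147).

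Cell type markers were read for the kind of cell in the cultures. All 10 markers of the ovarian surface epithelium were past the filter, with summed signals of 91481 to 99444 (MOSE-E cells), 62441 to 84923 (MOSE-I cells) and 57673 to 75343 (MOSE-L cells). Between MOSE-E and MOSE-L cells 5 fell, among them Krt7 (-4.28), Lrrn4 (-2.23), Krt8 (-1.47) and Cdh2 (-1.39), and 0 were called higher. Wt1, a transcription factor of mesothelium, pointed the other way (0.94, adjusted p = 0.0327, not called on size), and its MOSE-L arrays lay wholly above MOSE-E, as did those of Upk3b (0.59, adjusted p = 0.257). Between MOSE-E and MOSE-I cells 4 markers were called lower, Krt7 (-3.56), Lrrn4 (-2.49), Msln (-2.41) and Cdh2 (-1.85), and 0 higher. Against MOSE-I cells MOSE-L cells had Wt1 (1.09) and Msln (1.90) higher and Krt8 lower (-1.75). The rise of Msln followed its fall in MOSE-I cells, and MOSE-L against MOSE-E gave -0.51 for this gene (adjusted p = 0.279). The count of markers higher than in MOSE-E was 1 without MOSE-E replicate 1, MOSE-L replicate 2 or MOSE-L replicate 3. Krt7, a keratin of simple epithelia, was at 75.8 to 545 on all MOSE-I and MOSE-L arrays. Of 6 fibroblast and stroma markers 4 were tested, and between MOSE-E and MOSE-L cells Dcn, a matrix proteoglycan, rose (2.19, adjusted p = 0.0101), while the collagen gene Col3a1 gave -1.04 (adjusted p = 0.0938), Pdgfrb -0.27 (adjusted p = 0.594) and Pdgfra 1.53 (adjusted p = 0.109). Without MOSE-E replicate 1 and MOSE-L replicate 3 the list had 0 higher and 1 lower, without MOSE-E replicate 1 alone 1 lower, and without MOSE-I replicate 1 it had 2 higher. In MOSE-I against MOSE-E cells Pdgfrb was higher (1.74) and Col3a1 lower (-1.51). None of the 5 granulosa, 5 endothelial and 5 leukocyte markers on the array passed the filter, and their summed signals reached at most 1221, 544 and 473. The granulosa sum was 1202 to 1221 in MOSE-L cells and 570 to 716 in the other stages, and its part in any result was not tested.

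The E2F words of the promoters were counted over all RefSeq windows. The words TTTCCCGC, TTTGGCGC, TTTCGCGC and TTTGCCGC were searched on both strands, of which the first contains the core named above. At least 1 of them was in 2.26% of all windows, and 2.6% of the 27025 genes with a window held one. Of the 7 members with a window, 1 held a word: Cdkn2a, in the window of its upstream start. Of the tested S phase genes 15 had a window and 7 held a word, and of the 6 with a window that fell in MOSE-L against MOSE-E 4 did (Mcm5, Mcm6, Cdc6 and Pola1). Of the 9 with a window that were not called, 3 held one. The list was chosen as genes under E2F control, so its share of words is no independent result. Core counts by member were 2 for Ccne1, 2 for Cdk6, 3 for the upstream start of Cdkn2c and 5 for that of Cdkn2a, and 0 for Ccnd3, Cdk4 and Cdkn1b.

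For each member past the filter the genes with the most similar signals over the 9 arrays were taken from all 7951 other tested genes. For Ccne2 these were Efhd2 (r of 0.988), Hmgn5 (0.987) and Pif1 (0.985), and for Ccne1 Wdhd1 (0.983), Stag1 (0.979) and Map2k3 (0.976). For Cdk4 they were Psmb4, Pafah1b3 and Cops4 (0.982, 0.980 and 0.975), for Cdk6 Nop58, Usp10 and Sltm (0.983 to 0.966) and for Cdkn2c Papss1, Oxct1 and Stk17b (0.977 to 0.964). Those of Ccnd3 were Etaa1, Ube2t and Mpi (0.969 to 0.955), of Ccnd2 Fbxw5, Cnot6l and Fam133b (0.952 to 0.938), of Cdkn1b Sesn1, Phf14 and Klhl25 (0.958 to 0.931) and of Ccnd1 Cpsf2, Sod3 and Eral1 (0.926 to 0.893). The best of so many genes has a high r over 9 arrays that share their stages, so these names are a description.

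The 5 nearest protein-coding genes on either side of each member gave 99 neighbours, of which 35 were tested. Between MOSE-L and MOSE-E 5 of them rose and 1 fell, where 8.11% of all tested genes were called higher and 7.49% lower. Beside Ccne2, whose own signal fell, the adjacent gene Trp53inp1, a stress protein gene induced by p53, rose by 2.36 (adjusted p = 0.00314). Its signals were 1785, 979 and 666 in MOSE-E cells, 1459, 818 and 749.6 in MOSE-I cells and 7418, 3099 and 7682 in MOSE-L cells, so the malignant stage lay wholly above the others. Near Ccnd2, Parp11 (1.11, adjusted p = 0.0199) and Tspan9 (1.45, adjusted p = 0.00218) rose, near Ccnd1 Ano1 (1.37, adjusted p = 0.0427), and beside Cdk4 Tspan31 (1.23, adjusted p = 0.00686). Near Cdkn2c, Dmrta2 fell by 2.98 (adjusted p = 0.000151). Between MOSE-L and MOSE-I, Trp53inp1 and Dpy19l4 near Ccne2 were higher, and Rad51ap1 near Ccnd2, Pop4 near Ccne1 and Dmrta2 were lower. Of all tested genes 7.38% and 6.04% were called there. Between MOSE-I and MOSE-E no neighbour was called, against 2.29% of all tested genes higher and 3.61% lower. The neighbours are a description.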

How the data were processed

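Total RNA of 9 cultures was hybridised to Affymetrix whole-genome mouse arrays, 3 per stage. The authors made the deposited intensities, MAS 5.0 signals per probe set scaled to a trimmed mean of 500. Groups came from the sample labels, and the passages of each stage are those listed in the paper's methods. After removal of 64 control probe sets, the 13845 that exceeded 500 on 1 array or more were fitted as log2(signal + 50) in limma 3.58.1 under R 4.3.3, with 1 mean per stage, 6 residual degrees of freedom and variances that follow the mean. Adjustment was by Benjamini-Hochberg over all of them. Gene names came from the platform annotation, updated by gene ID to GRCm38.p6, from which gene positions were also taken; promoter windows were from RefSeq. The pair tests were exact permutation tests, 2-sided by construction of F, and the procedure was tested on simulated data. The 3 arrays per stage limit the precision.

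The members and 13 gene lists (124 genes) were chosen with earlier results of these data known. Named genes were all members, the 3 most similar genes of each member and called neighbours. In each list they were up to 4 called genes that changed most from MOSE-E to MOSE-L. Where none was called, the list's gene of highest signal was named, a choice that is no comparison of levels. Named after their values were seen were Cdkn1a, E2f6, Skp2, Jun, Ezh2, Foxo1, Foxo3, Rb1, Fbxw7, Wt1, Upk3b, Msln, Pdgfra, Pdgfrb and Col3a1. The core TCCCGC was searched after the longer words. Alternatives were other added values, quantile normalization, median centring, other filters, variance settings, the methods' t-test, a stricter p, a replicate block and leaving out arrays.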

Additional observations from a re-analysis of the deposited data

How the results depend on the processing

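No alternative called a member higher. The count of members called lower in MOSE-L against MOSE-E was 1 in place of 2 with 200 added before log2, without a filter, with a signal over 1000, with only the 2 stages compared, with the methods' t-test unadjusted or adjusted and at an adjusted p of 0.01, and 1 to 2 when single arrays were left out. Wherever the count was 1, the gene kept was Ccne2. Without MOSE-E replicate 1 the count of 2 was Ccne2 and Cdk6, and Ccne1 was not called (adjusted p = 0.115). In MOSE-L against MOSE-I the count lower was 1 without a filter, with a signal over 1000, with only the 2 stages compared and with the unadjusted t-test. It was 0 with the adjusted t-test and at an adjusted p of 0.01, and 0 to 2 without single arrays. In MOSE-I against MOSE-E it was 0 to 1 without single arrays. Leaving out MOSE-E replicate 1 and MOSE-L replicate 3 together, chosen after seeing the data, gave 1 lower in MOSE-I against MOSE-E (Cdk6) and 0 in MOSE-L against MOSE-I. The larger added value shrinks the changes of dim genes and the t-test does not share the spread across genes; the other causes were not tested.

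The labels give the replicate numbers no meaning beyond naming cultures. The deviations of same-numbered arrays correlated between -0.113 and 0.410 over 9 pairs, 2 of them over 0.1. Both of these paired MOSE-E with MOSE-L, replicate 1 (0.410) and replicate 2 (0.262). Whether same-numbered arrays shared a batch was not tested. With the replicate number as a block, no call on a member changed. The difference in course between Ccne1 and Ccne2 (0.81, exact p = 0.0464) then passed 0.05 unadjusted. By the same exact test it also did with 200 added (0.95, p = 0.0107), with quantile normalization (0.83, p = 0.0429), with linear signals over the gene's mean (0.54, p = 0.0214), and without MOSE-L replicate 1 (1.02, p = 0.025) or replicate 2 (0.61, p = 0.0429). Over all fits without a single array it ran from 0.59 to 1.02, with exact p from 0.025 to 0.175. That between Ccnd1 and Ccnd2 ran from -1.10 to -0.56 without single arrays, and was -0.85 (exact p = 0.0107) without MOSE-I replicate 1.

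Of the members' log2 changes under the alternatives, 600 kept their direction and call, 28 lost a call, 4 gained one and 13 changed sign. None that changed sign was called. In MOSE-I against MOSE-E, Cdkn1b was 0.087 with median centring, 0.122 without MOSE-E replicate 1 and MOSE-L replicate 3, and -0.226 to 0.130 over the fits without a single array, which gave Ccne1 -0.040 to 0.317 and Ccnd3 -0.028 to 0.187. In MOSE-L against MOSE-I the same fits gave -0.186 to 0.257 for Cdk6, -0.077 to 0.804 for Ccnd1 and -0.084 to 0.505 for Ccnd2. In MOSE-L against MOSE-E they gave -0.125 to 0.409 for Cdk4 and -0.134 to 0.515 for Cdkn2c (0.522 and 0.609 without both of those arrays).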
